A study of Mus musculus with 40 samples.

Results

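The transcripts of the mitochondrial genome were followed in the renal cortex of 40 male mice. Members were all genes whose symbol starts with mt-, which gave 37 of the 55401 genes in the count table, namely 13 mRNAs, 2 rRNAs and 22 tRNAs, and all 37 lie on the mitochondrial chromosome. The mice were heterozygous for the Ins2-Akita allele on the C57BL/6J strain or were their wild type (WT) littermates. The Akita allele is a mutated insulin gene whose misfolded product injures the insulin-producing beta cells, so the mice are lean and diabetic, and the labels call these mice diabetic. Each genotype was given an ethanol vehicle, MitoGamide, water or MitoQ, with 5 mice in each of the 8 groups and 1 library per mouse. Per the labels, the ethanol vehicle was 10% ethanol in water and MitoGamide was given at 10 mg/kg, by daily oral gavage from 6 to 22 weeks of age. The dose of MitoQ is not given in the sources used here, and the protocol text names neither MitoQ nor the water control. MitoGamide is a mitochondria-targeted scavenger of reactive dicarbonyls such as methylglyoxal, and MitoQ is a mitochondria-targeted antioxidant. MitoGamide was compared with ethanol (the ethanol arm) and MitoQ with water (the water arm), and since the vehicles differed the compounds were not compared with each other.

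The mitochondrial genome is a small circle that is transcribed from both strands into long precursors, from which most mRNAs and rRNAs are released by cutting out the tRNAs that lie between them. The 13 mRNAs encode core subunits of complexes I, III and IV of the respiratory chain and of ATP synthase, and the 2 rRNAs and 22 tRNAs serve the mitochondrial ribosome that translates them. All other subunits of the chain are encoded in the nucleus and imported. The proximal tubule, which fills most of the renal cortex, is rich in mitochondria and depends on oxidative phosphorylation to reabsorb solutes.

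The 22 tRNA genes were listed at 0 in all 40 libraries. Their transcripts were 59 to 75 bases long, and the shortest and the longest are shown here because their length bears on this absence (GENCODE release 21 transcripts, GRCm38, 5′ to 3′).
mt-Ts2: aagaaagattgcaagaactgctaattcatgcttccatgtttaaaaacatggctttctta
mt-Tl1: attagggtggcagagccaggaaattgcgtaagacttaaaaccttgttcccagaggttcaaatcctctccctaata
Mt-Ts2 is a serine tRNA and mt-Tl1 a leucine tRNA. Outside the mitochondrial genome, 0 of 1004 genes whose longest transcript was at most 75 bases had a count in any library, against 168 of 1421 genes (11.8%) at 76 to 100 bases and 4423 of 8188 (54.02%) at 201 to 500 bases. The tRNA class was therefore not measured by these libraries and counts, no ratio of tRNA to mRNA could be formed, and nothing can be said about its level. The other 15 members had counts in all 40 libraries.

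Several of the mRNAs share their sequence with a stretch of nuclear DNA. Copies of 7 mitochondrial mRNAs lie side by side on the minus strand of chromosome 1, at chr1:24611535-24616197 (GRCm38), each annotated as a gene of its own. The copies Gm28661, Gm10925, Gm28437, Gm10222 and Gm28439 match mt-Co2, mt-Atp6, mt-Co3, mt-Nd4l and the start of mt-Nd4 with 0 substitutions, Gm28438 differs from mt-Nd3 by 1, and Gm29216 differs from the last 492 bases of mt-Co1 by 6. All 6 substitutions of Gm29216 fall near its start, shown in capitals below (T1056A, C1057T, A1059G, A1060G, C1062A and A1066T, with the mitochondrial base first, counted from the first base of mt-Co1), while the first 60 bases of mt-Co2 and Gm28661 show a pair with no difference over the 681 bases of the copy (mt-Co2 has 684).
mt-Co1: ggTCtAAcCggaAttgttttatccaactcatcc
Gm29216: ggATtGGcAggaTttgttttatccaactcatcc
mt-Co2: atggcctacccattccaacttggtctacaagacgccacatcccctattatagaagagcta
Gm28661: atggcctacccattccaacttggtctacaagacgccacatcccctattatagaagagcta
Reads from the stretches such a pair shares were divided between its members by the estimation of counts. The share given to Gm28661 out of mt-Co2 and Gm28661 together ranged from 0.881% to 90.9% of counts (median 52.7%), and Gm28661 held more counts than mt-Co2 in 25 of 40 libraries. For mt-Co3 and Gm28437 the share of the copy ranged from 0.716% to 56.0%, for mt-Atp6 and Gm10925 from 0.0328% to 46.3%, and for mt-Co1 and Gm29216 from 0% to 17.4%. Gm28438 had a mean of 69.35 counts, Gm28439 of 7.45 and Gm10222 of 0. Adding each copy to its parent lowered the SD of log2 levels between mice of a group from 0.91 to 0.41 for mt-Co2, from 0.59 to 0.40 for mt-Co3 and from 0.47 to 0.36 for mt-Atp6. It did not do so for mt-Co1 (0.47 and 0.51) or mt-Nd3 (0.31 and 0.32), and left mt-Nd4 at 0.32 and mt-Nd4l at 0.39. Values below are given with the copies added wherever 1 of these 7 genes is named, unless they are said to be as deposited. Shares and ratios of whole classes are as deposited unless the copies are said to be added, and counts of members called by edgeR or DESeq2 likewise rest on the deposited counts.

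**Figure D1:**
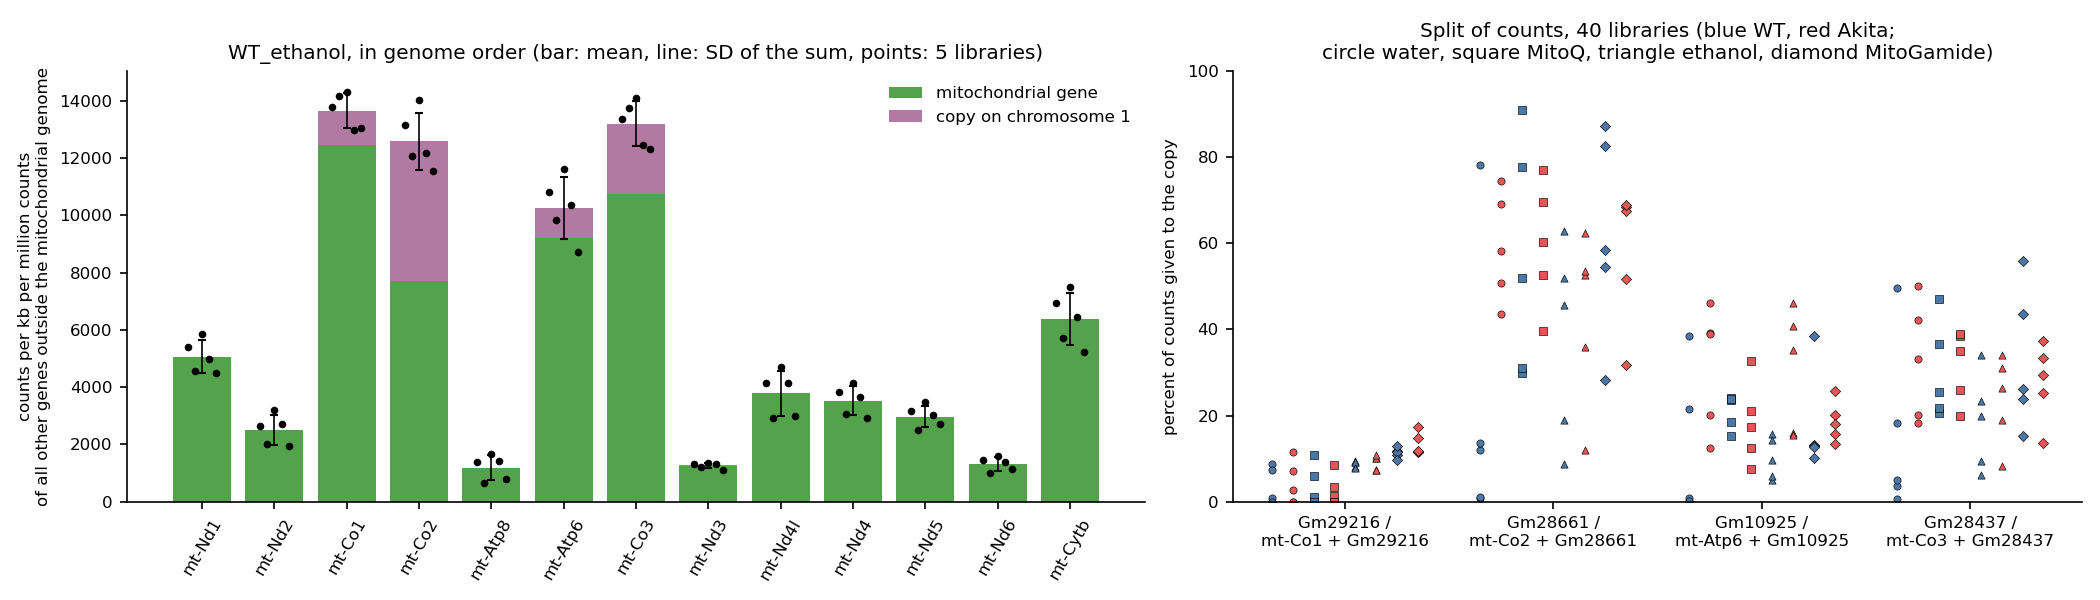
Left: level of each mitochondrial mRNA in WT mice on ethanol in genome order, as CPM per kilobase, scaled to the counts of all other genes outside the mitochondrial genome (bars: mean, with the part given to the chromosome 1 copy on top; line: SD of the sum; points: the 5 libraries). Right: percent of the counts of each pair that was given to the copy in each of the 40 libraries, which reached from 0.881% to 90.9% for mt-Co2 and Gm28661.

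Libraries held between 9106654 and 24321424 counts (median 15638394.5), of which mitochondrial genes took 14.3% to 49.2% (median 27.1%). No 2 libraries held identical values. Markers of the proximal tubule were abundant throughout (Slc34a1 at 2933 to 6894 and Lrp2 at 2411 to 9751 CPM of the counts outside the mitochondrial genome, here CPM outside), and the thick ascending limb marker Umod was at 496 to 2556. In 5 libraries, all in the water arm, the gene Lars2 held more than 5000 CPM of the total count, namely WT mouse 4 on water (18008), Akita mice 2 (18551) and 5 (10682) on water, WT mouse 3 on MitoQ (18751) and Akita mouse 2 on MitoQ (6592). Lars2 encodes the mitochondrial leucyl-tRNA synthetase, and its mouse gene model overlaps an rRNA-like repeat. Whether its counts stand for rRNA residue was not tested. The rRNA share of these libraries was above the median of all libraries, except in WT mouse 4 on water. The mRNA and rRNA shares of the total count in the water arm, and the ratios described for it, are given below with and without these libraries where a difference between 2 groups moved by over 1.5 times or its p crossed 0.05. Leaving them out, an alternative chosen after seeing the data, leaves 3 Akita and 4 WT mice on water and 4 Akita and 4 WT mice on MitoQ.

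The rRNAs were the larger class, above the mRNAs in all 40 libraries, although the depletion kit is directed at mitochondrial as well as cytoplasmic rRNA, so these counts are what remained after depletion. Mt-Rnr2, the large ribosomal subunit's rRNA (chrM:1094-2675, plus strand, 1582 bases), exceeded mt-Rnr1, that of the small subunit (chrM:70-1024, plus strand, 955 bases), in all 40 libraries. Their ratio of counts had a median of 3.59 and ranged from 2.04 to 5.11. The rRNAs together took 9.23% to 46.6% of the total count (median 21.9%) and the mRNAs 1.54% to 8.27% (median 5.02%). Hence the ratio of rRNA to mRNA counts as deposited ran from 1.82 in WT mouse 1 on water to 27.1 in Akita mouse 2 on water, and with copies added from 1.73 to 22.7 in the same mice. WT mouse 1 on water also had the highest summed markers of all 40 libraries for liver (599 CPM outside, median 65.0), thick ascending limb (3842, median 2109) and inner medulla (129, median 72.9), and their part in its values was not tested.

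Levels of the mRNAs differed widely along the genome, compared here per kilobase of transcript. Each library was scaled to the counts of all genes outside the mitochondrial genome other than the copies, and the copies were added to their parents (values on this scale are written as CPM of other genes). Mt-Co1 (chrM:5328-6872), mt-Co3 (chrM:8607-9390) and mt-Co2 (chrM:7013-7696), the 3 mitochondrial subunits of complex IV, led with medians of 13954, 13693 and 13223 over the 40 libraries. Mt-Co1 was above mt-Co3 in 17 of 40 libraries and mt-Co3 above mt-Co2 in 30, so the order of these 3 was not fixed. Mt-Atp6 (chrM:7927-8607), the proton channel subunit of ATP synthase, followed at 10898 and lay below mt-Co2 in 31 libraries. These 4 mRNAs took 43.5% to 72.3% of all mitochondrial mRNA counts (median 61.5%).

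Mt-Cytb (chrM:14145-15288), cytochrome b of complex III, had a median per-length level of 6833 and lay below mt-Atp6 in 40 of 40 libraries. Of the 6 complex I subunits on the heavy-strand transcript 5 came next, with mt-Nd1 (chrM:2751-3707) at 5405, mt-Nd4l (chrM:9877-10173) at 4190, mt-Nd4 (chrM:10167-11544) at 3837, mt-Nd5 (chrM:11742-13565) at 3490 and mt-Nd2 (chrM:3914-4951) at 2702. Each of these exceeded the next in 31 to 39 of 40 libraries. Mt-Nd6 (chrM:13552-14070), the 1 mRNA encoded on the minus strand, had a median of 1762, mt-Atp8 (chrM:7766-7969), a small subunit of ATP synthase, 1601, and mt-Nd3 (chrM:9459-9806), a small complex I subunit, 1509. Mt-Nd6 was above mt-Atp8 in 29 libraries and mt-Atp8 above mt-Nd3 in 25, so these neighbours overlapped. Mt-Atp8 shares 43 bases with mt-Atp6, mt-Nd4l shares 7 with mt-Nd4, mt-Atp6 shares 1 with mt-Co3, and mt-Nd5 shares 14 with mt-Nd6 on the opposite strand, so reads over these bases can be split between the pair. The library kit keeps the strand, but the strand setting used for counting is not given in the sources used here, and the level of mt-Nd6 rests on it.

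The spread between mice differed by arm. The SD of log2 levels within groups was larger in the water arm for 15 of 15 members, and its median over the mRNAs was 0.268 in the ethanol arm and 0.468 in the water arm. The largest SD was that of mt-Rnr1 in the water arm (0.81), which was 0.32 in the ethanol arm. Without the 5 libraries with high Lars2 the SD was larger in the water arm for 11 of 15 members, all but mt-Nd2, mt-Nd3, mt-Nd4 and mt-Nd5, with a median of 0.366 over the mRNAs and 0.61 for mt-Rnr1. For each comparison, genes were tested with edgeR's quasi-likelihood test on the 10 libraries concerned, with p-values adjusted by the Benjamini-Hochberg method over all genes and called at 0.05. Class shares and ratios were tested by two-sided exact permutation tests on log2 values, for which 5 against 5 mice allow no p below 0.00794. Over the 80 such tests, of 8 measures in 10 comparisons, 9 had a p under 0.05 and 0 an adjusted p under 0.05 (smallest 0.212). The p-values of shares and ratios given below are therefore unadjusted unless said otherwise. None of these 80 tests passed the correction, which did not cover values with copies added, with other denominators or with libraries left out. With a floor of 0.00794, a test could pass it only if many others were also at or near the floor. Failing it therefore does not show that a difference is absent.

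**Figure D2:**
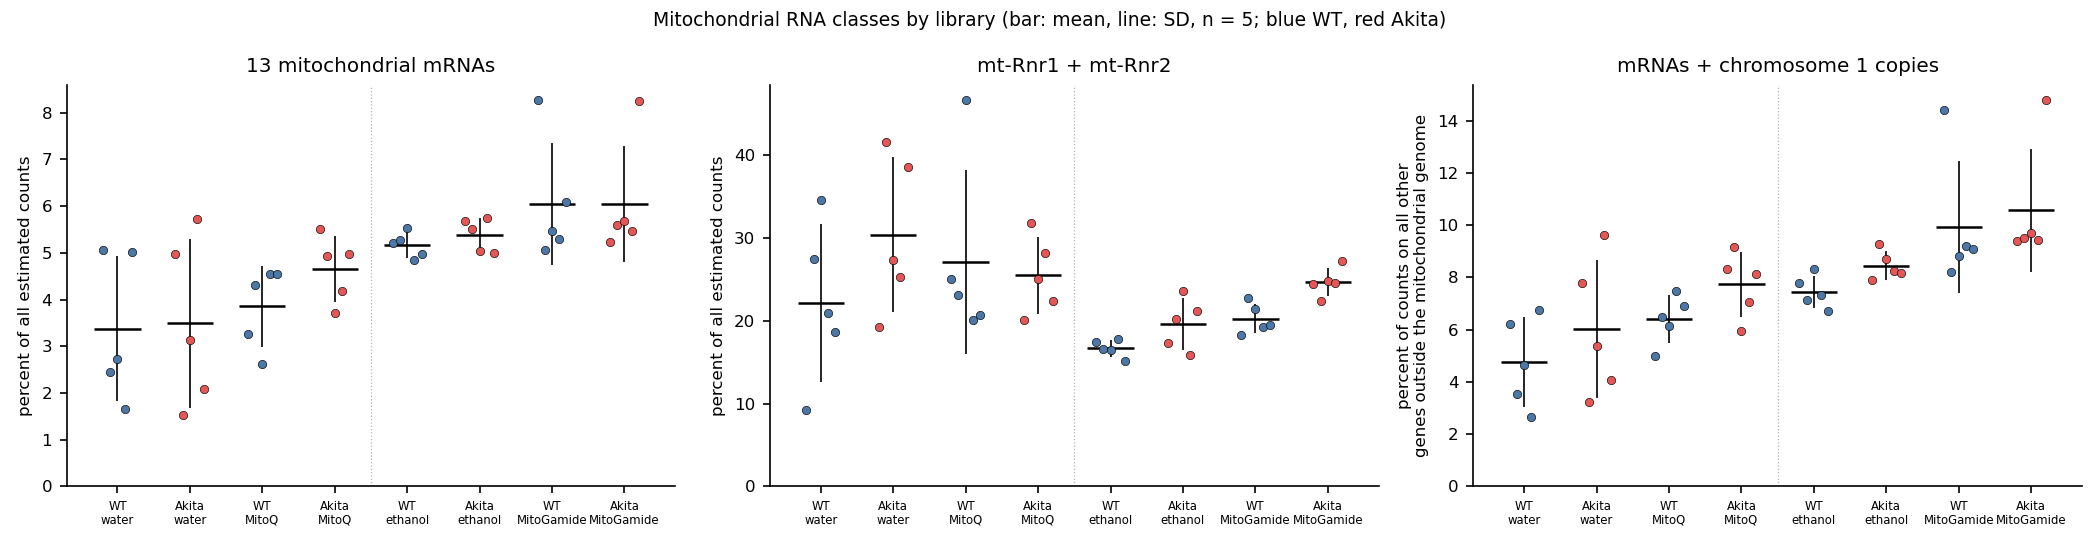
Mitochondrial RNA classes by library in the 8 groups (y axes: percent as titled; points: libraries; bar: mean; line: SD, n = 5; blue WT, red Akita; the dotted line divides the water arm on the left from the ethanol arm on the right). The libraries on water alone spanned 1.54% to 5.71% of the total count as mRNA, and those on ethanol alone 4.84% to 5.75%.

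Akita mice were first compared with WT mice. On ethanol, mitochondrial mRNAs took 5.67%, 5.50%, 5.04%, 5.75% and 4.99% of the total count in the Akita mice (5.39% ± 0.356, SD, n = 5) and 5.21%, 5.28%, 5.54%, 4.84% and 4.98% in the WT mice (5.17% ± 0.272). The groups overlapped and the log2 difference was 0.06 (exact permutation test, p = 0.32). Over the counts outside the mitochondrial genome it was 0.12 (p = 0.048), and with the copies also added 0.18 (p = 0.040, both by exact permutation tests). With 1 library left out, p was above 0.05 in 6 and 7 of 10 cases, up to 0.0714 for both. On water, shares were 4.98%, 1.54%, 3.14%, 5.71% and 2.08% in Akita mice and 5.06%, 2.45%, 2.73%, 1.65% and 5.01% in WT mice, with means of 3.49% ± 1.81 and 3.38% ± 1.56. The mRNA share thus varied over more than 3-fold among mice of 1 group on water, and the genotypes could not be separated (log2 difference 0.00, exact permutation test, p = 1.0). Without the libraries with high Lars2 it was 0.31 on water (exact permutation test, p = 0.46). Under MitoGamide the means were 6.05% ± 1.24 and 6.04% ± 1.30, and under MitoQ 4.66% ± 0.708 and 3.86% ± 0.870. The log2 difference under MitoQ was 0.29 (p = 0.167), and 0.14 without the libraries with high Lars2 (p = 0.457, both by exact permutation tests). Over all 40 mice, with genotypes permuted within each treatment, the mean log2 difference was 0.09 (two-sided permutation test, 100000 resamples, p = 0.50). Over the counts of other genes with copies added, a scale adopted after the data were seen, it was 0.21 (p = 0.061), and 0.25 without the 5 libraries with high Lars2 (n = 35, p = 0.022, both by the same permutation test, unadjusted).

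The rRNA share was higher in Akita than in WT mice in 3 of the 4 arms by group mean. It was 19.6% ± 3.11 against 16.7% ± 1.03 on ethanol, 24.7% ± 1.69 against 20.2% ± 1.79 under MitoGamide and 30.4% ± 9.37 against 22.1% ± 9.53 on water, and 25.4% ± 4.66 against 27.1% ± 11.1 under MitoQ (SD, n = 5). The log2 difference over the 4 arms was 0.25 (permutation test within arms, p = 0.036, adjusted p = 0.29 over the 8 measures), and without the 5 libraries with high Lars2 it was 0.21 (p = 0.090 by the same test). Leaving them out took the log2 difference on water from 0.53 (p = 0.198) to 0.24 (p = 0.743) and that under MitoQ from -0.03 (p = 0.897) to 0.10 (p = 0.571, all 4 by exact permutation tests). Mt-Rnr2 alone was 13.6%, 13.4%, 12.8%, 13.7% and 12.5% of counts in WT mice on ethanol and 14.2%, 16.04%, 18.6%, 13.2% and 16.9% in Akita mice on ethanol, where 1 Akita mouse lay within the WT range.

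Among single members, edgeR called 0 of 15 for genotype in each of the 4 arms. On ethanol it called 16.4% of all 17747 genes tested, and 1 of 15 members, mt-Atp6, was under an unadjusted p of 0.05, against 30.1% of all genes. Mt-Atp6 as deposited was lower in Akita mice (log2 fold change -0.25, SE 0.11, adjusted p = 0.162). With Gm10925 added it was 7176 to 9111 CPM of other genes in the Akita mice and 5936 to 7903 in the WT mice, so the sign depends on where the shared reads are placed. DESeq2, run on deposited counts, called 1 member, mt-Co1, against 17.6% of all genes. On water edgeR called 0.552% of all genes, and 4 of 15 members had an unadjusted p under 0.05, all higher in Akita mice, against 7.56% of genes. Mt-Nd6 had the smallest p (log2 fold change 1.10, SE 0.33, adjusted p = 0.275) and was the 1 member called by DESeq2, which called 1.94% of all genes. It stood at 1082, 918, 957, 1504 and 928 CPM of other genes in Akita mice on water and at 345, 249, 794, 745 and 336 in WT mice on water, without overlap. Of 18304 genes tested on water, 459 did not overlap by edgeR's normalized CPM as deposited.

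Under MitoGamide edgeR called 14.3% of genes between genotypes, and 0 of 15 members had an unadjusted p under 0.05, against 31.1% of genes, while DESeq2 called mt-Rnr2 among 18.5% of genes. The mRNA with the smallest p there was mt-Co3 (as deposited, log2 fold change 0.38, SE 0.27, adjusted p = 0.355). Under MitoQ edgeR called 0.557% of genes, and 0 of 15 members had an unadjusted p under 0.05, against 9.06% of genes. DESeq2 called 0 of the 14 members to which it gave an adjusted p, all but mt-Rnr1, and 2.29% of genes. There the smallest p of an mRNA was that of mt-Co1 (as deposited, log2 fold change 0.20, SE 0.27, adjusted p = 0.947).

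With the genotype averaged over the 4 arms (40 libraries), edgeR called 22.8% of all genes and 0 of 15 members. Of the members, 2 had an unadjusted p under 0.05, both higher in Akita mice, against 33.6% of all genes. Mt-Nd5, a proton-pumping subunit of complex I, had the smallest p (log2 fold change 0.25, SE 0.10, adjusted p = 0.0868) and was the 1 member DESeq2 called, among 24.3% of genes. Without the 5 libraries with high Lars2 edgeR called 2 of 15 members, among 4228 of 17853 genes. Leaving out 1 library also changed this count, as given in the closing section. As deposited and with all 40 libraries, 13 of 15 members had a positive estimate, with a median of 0.10 and a range of -0.11 to 0.28 on the log2 scale. With copies added it was 15 of 15, with a median of 0.17 and a range of 0.05 to 0.30. By group, mt-Nd5 was 6410 ± 597 in Akita and 5419 ± 682 in WT mice on ethanol, 8294 ± 1891 and 7826 ± 2514 under MitoGamide, 5776 ± 1810 and 3532 ± 871 on water, and 7317 ± 1159 and 6022 ± 863 under MitoQ, in CPM of other genes (SD, n = 5). Its group mean was higher in Akita mice in all 4 arms.

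**Figure D3:**
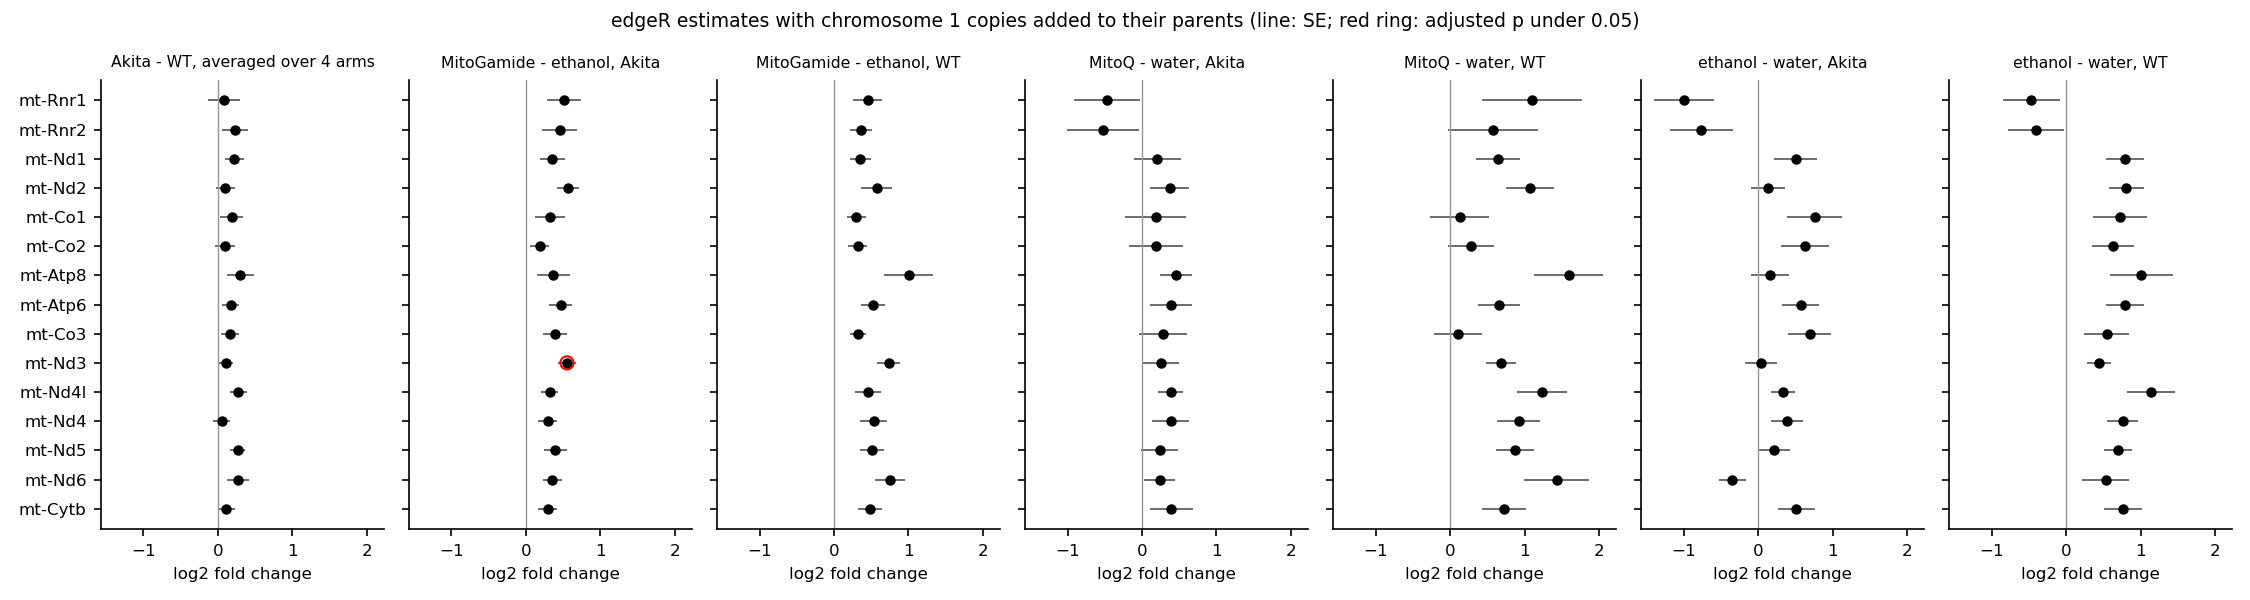
Log2 fold changes of the 15 counted members by edgeR with the chromosome 1 copies added to their parents, 1 panel per comparison (x axis: log2 fold change; line: SE; red ring: adjusted p under 0.05). Of the members, 15 lie above 0 with MitoGamide in both genotypes, and the ring marks mt-Nd3 with MitoGamide in Akita mice.

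MitoGamide was compared with the ethanol vehicle to ask how a mitochondria-targeted scavenger bears on these transcripts. The 2 genotypes were tested on separate mice and share no library, while the ethanol mice used here are also the controls of the genotype and vehicle comparisons. In Akita mice, the mRNA share was 5.24%, 5.59%, 5.69%, 5.46% and 8.25% with MitoGamide (6.05% ± 1.24) and 5.39% ± 0.356 with ethanol (log2 difference 0.15, exact permutation test, p = 0.286). In WT mice it was 8.27%, 5.07%, 5.46%, 5.30% and 6.09% with MitoGamide (6.04% ± 1.30) and 5.17% ± 0.272 with ethanol (log2 difference 0.20, exact permutation test, p = 0.111). In each genotype 1 MitoGamide mouse, Akita mouse 5 and WT mouse 1, lay far above the others. Without that mouse the log2 difference was 0.03 in Akita mice (p = 0.595) and 0.083 in WT mice (p = 0.206, both by exact permutation tests).

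The rRNA share, which is part of the same total, was higher as well. The rRNAs took 24.4%, 22.4%, 24.8%, 24.5% and 27.2% of counts in Akita mice with MitoGamide and 17.3%, 20.2%, 23.6%, 15.8% and 21.2% with ethanol, so that 4 of 5 treated mice were above all 5 controls. The log2 difference was 0.34 (exact permutation test, p = 0.0159). In WT mice they took 18.3%, 22.7%, 21.4%, 19.3% and 19.4% with MitoGamide and 17.4%, 16.6%, 16.4%, 17.7% and 15.1% with ethanol, without overlap (log2 difference 0.28, exact permutation test, p = 0.00794).

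Counted against all other genes outside the mitochondrial genome, with copies added, the mRNAs came to 9.40%, 9.52%, 9.69%, 9.45% and 14.8% of those counts in Akita mice with MitoGamide and to 7.90%, 9.26%, 8.71%, 8.23% and 8.18% with ethanol. The groups did not overlap, and the log2 difference was 0.30 (exact permutation test, p = 0.00794). WT mice had 14.4%, 8.20%, 8.83%, 9.19% and 9.09% with MitoGamide and 7.77%, 7.13%, 8.32%, 7.34% and 6.70% with ethanol, where 4 of 5 treated mice lay above all 5 controls (log2 difference 0.39, exact permutation test, p = 0.0159). Without Akita mouse 5 the difference was 0.17, and without WT mouse 1 it was 0.25. With any 1 of the 10 mice left out, p was at most 0.0317 in either genotype (exact permutation tests). This scale was adopted after the data were seen. The effect on the mRNA share did not differ between genotypes beyond the spread of the mice (difference of log2 effects -0.05, exact permutation test within genotypes, p = 0.74).

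By member, edgeR called 0 of 15 as deposited in Akita mice, against 1.26% of 17051 genes, but 8 of 15 had an unadjusted p under 0.05, all higher, against 20.9% of genes. DESeq2 called 4 members, mt-Atp6, mt-Nd2, mt-Nd3 and mt-Rnr2, all higher, against 6.01% of genes. Mt-Nd3 stood at 693, 705, 641, 691 and 638 CPM of other genes with MitoGamide and at 401, 511, 527, 366 and 527 with ethanol, and the groups did not overlap. By edgeR's normalized CPM as deposited, 1288 of the 17051 genes did not overlap in this comparison. Its log2 fold change was 0.53 as deposited (SE 0.12, adjusted p = 0.0545) and 0.55 with its copy added (SE 0.12, adjusted p = 0.0462), the 1 member called by edgeR on that scale. All 15 members then had a positive estimate, from 0.18 for mt-Co2 to 0.56 for mt-Nd2, with a median of 0.37. Akita mouse 5 with MitoGamide had the highest level of its group for most mRNAs, though the lowest of mt-Nd3. Its mt-Co1 was at 47462 CPM of other genes, against 24751 to 27587 in the other treated mice and 23120 to 25152 with ethanol. Member estimates without this mouse are not given here.

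In WT mice edgeR called 0 of 15 members and 0% of 17395 genes, while 12 of 15 members had an unadjusted p under 0.05, all higher, against 10.6% of genes. DESeq2 called mt-Nd3 and mt-Rnr2, both higher, among 0.732% of genes. Mt-Nd3 was 1199, 554, 689, 663 and 597 with MitoGamide and 453, 424, 475, 456 and 390 with ethanol (log2 fold change as deposited 0.67, SE 0.13, adjusted p = 0.307), again without overlap. Of the 17395 genes, 394 did not overlap by edgeR's normalized CPM as deposited. With copies added, 15 of 15 estimates were positive, with a median of 0.49 and a range of 0.30 to 1.00. WT mouse 1 with MitoGamide had the highest level of its group for every mRNA, which raised these estimates. Its mt-Nd4 was at 11712 CPM of other genes, against 5314 to 6761 in the other treated mice and 4047 to 5717 with ethanol. Member estimates without this mouse are not given here. Between genotypes, the response to MitoGamide was called different for 0 of 15 members and 0% of genes, and 0 of 15 had an unadjusted p under 0.05 for it, against 8.32% of genes.

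In bulk tissue, the number of mitochondria-rich cells and the mitochondrial RNA per cell cannot be told apart. The 8 proximal tubule markers summed to 12978 to 16425 CPM outside in Akita mice with MitoGamide and to 14890 to 18530 with ethanol, and to 18078 to 19765 and 18283 to 21321 in WT mice. None of them was at 0 in any library. The log2 difference of their sum was -0.18 in Akita and -0.05 in WT mice. Among the other marker lists, the 3 endothelial genes summed to 276 to 404 CPM outside in Akita mice with MitoGamide and to 211 to 258 with ethanol, without overlap (log2 difference 0.44, exact permutation test, p = 0.00794), and to 227 to 392 and 200 to 308 in WT mice (0.13). The highest podocyte sum of all 40 libraries (524) was that of Akita mouse 5 with MitoGamide, whose mRNA share stood apart. Erythrocyte sums were 1239 to 3721 against 841 to 1982 and fibroblast sums 84.5 to 222 against 108 to 144 in Akita mice, each with the highest library of all 40 in the MitoGamide group. Nuclear-retained RNAs (Malat1, Neat1, Kcnq1ot1 and Meg3) summed to 7852 to 13916 CPM outside in Akita mice with MitoGamide and to 12136 to 16088 with ethanol. The part of these markers and RNAs in the result was not tested.

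MitoQ was compared with water. In Akita mice, the mRNA share was 5.50%, 4.93%, 3.72%, 4.18% and 4.98% with MitoQ (4.66% ± 0.708) against 3.49% ± 1.81 with water, with overlap (log2 difference 0.58, exact permutation test, p = 0.198). WT mice had 3.26%, 4.31%, 2.63%, 4.55% and 4.55% with MitoQ (3.86% ± 0.870) against 3.38% ± 1.56 with water (log2 difference 0.29, exact permutation test, p = 0.46). The rRNA share was 20.02%, 31.8%, 24.99%, 28.1% and 22.3% in Akita mice with MitoQ and 19.3%, 41.5%, 27.3%, 25.2% and 38.6% with water. WT mice had 25.02%, 23.1%, 46.6%, 20.1% and 20.6% with MitoQ and 9.23%, 27.4%, 34.6%, 20.9% and 18.6% with water. Both MitoQ groups overlapped with their controls. Without the libraries with high Lars2, the log2 difference of the mRNA share was 0.02 in Akita mice (p = 0.971) and 0.19 in WT mice (p = 0.514, both by exact permutation tests). That of the rRNA share went from -0.22 (p = 0.373) to 0.00 (p = 1.0) in Akita mice and from 0.34 (p = 0.437) to 0.14 (p = 0.829) in WT mice (exact permutation tests). The highest share of a group belonged to a library with Lars2 above 5000 CPM in 3 of these 4 groups, and to mouse 3 among the WT mice on water.

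EdgeR called 0 of 15 members and 0% of genes for MitoQ in both genotypes. In Akita mice 1 of 15 members, mt-Nd4l, had an unadjusted p under 0.05, against 1.96% of genes (log2 fold change 0.38, SE 0.17, adjusted p = 0.999, and 0.25 without the libraries with high Lars2), and DESeq2 called 0 members and 0% of genes. In WT mice 8 of 15 members did, all higher, against 3.22% of genes, and DESeq2 called 0 of 15 members and 0.0112% of genes. Mt-Nd4l, a small hydrophobic complex I subunit, was 1075, 1099, 1290, 1213 and 1279 CPM of other genes in WT mice with MitoQ and 203, 440, 1103, 488 and 538 with water (log2 fold change 1.23, SE 0.34, adjusted p = 1.00). Only WT mouse 3 on water reached the level of the treated mice. For the difference of the MitoQ effect between genotypes, 3 of 15 members had an unadjusted p under 0.05, against 1.14% of genes, with 0 members and 0% of genes called.

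The vehicles themselves were compared next. Ethanol mice had a higher mean mRNA share than water mice in Akita (5.39% ± 0.356 against 3.49% ± 1.81, log2 difference 0.80, exact permutation test, p = 0.071) and in WT mice (5.17% ± 0.272 against 3.38% ± 1.56, log2 difference 0.74, exact permutation test, p = 0.056). Without the libraries with high Lars2 the log2 difference was 0.27 in Akita mice (5 against 3, exact permutation test, p = 0.214) and 0.52 in WT mice (5 against 4, exact permutation test, p = 0.056). In both genotypes 2 of 5 water mice lay in or near the range of the ethanol mice and 3 lay below it. Relative to other genes outside the mitochondrial genome and with copies added, the mRNAs came to 7.78%, 3.24%, 5.38%, 9.62% and 4.06% in Akita mice on water and to 6.24%, 3.54%, 4.66%, 2.68% and 6.74% in WT mice on water. WT mice on ethanol were at 6.70% to 8.32% (log2 difference 0.72, exact permutation test, p = 0.0159) and Akita mice on ethanol at 7.90% to 9.26% (0.60, p = 0.10). On this scale the differences without the libraries with high Lars2 were 0.54 in WT mice (p = 0.0159) and 0.19 in Akita mice (p = 0.357, both by exact permutation tests). The WT difference had a p of up to 0.0556 with 1 library left out, which was above 0.05 without ethanol mouse 1 or 3. The labels do not say whether the arms were run together, so vehicle and any difference in handling cannot be told apart.

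The rRNA share was compared between vehicles as well. In Akita mice it was 19.6% ± 3.11 on ethanol and 30.4% ± 9.37 on water (log2 difference -0.59, exact permutation test, p = 0.0397), and without the libraries with high Lars2 the difference was -0.29 (p = 0.161 by the exact permutation test). Its p exceeded 0.05 without ethanol mouse 1, 2, 4 or 5 or water mouse 2, 3 or 5 (exact permutation tests, up to 0.0873). In WT mice it was 16.7% ± 1.03 on ethanol and 22.1% ± 9.53 on water (log2 difference -0.28, exact permutation test, p = 0.381), and the difference was -0.57 without WT water mouse 1 (p = 0.00794) and -0.091 without WT water mouse 3 (p = 0.746, both by exact permutation tests). Mt-Rnr1 in Akita mice was 39734, 57229, 72375, 34063 and 58588 CPM of other genes on ethanol and 55691, 171685, 73511, 86601 and 148854 on water. The high values belong to Akita mice 2 and 5 on water, which have high Lars2. EdgeR called 0 of 15 members between vehicles in Akita mice, against 12.7% of genes, and 2 had an unadjusted p under 0.05, mt-Rnr1 (log2 fold change -0.99, SE 0.41, adjusted p = 0.101) and mt-Co2 as deposited (0.98, SE 0.45, adjusted p = 0.123), against 39.7% of genes. With its copy added mt-Co2 had a log2 fold change of 0.63 (SE 0.32, adjusted p = 0.16). Without the libraries with high Lars2 these were -0.34 for mt-Rnr1 (adjusted p = 0.543) and 0.59 for mt-Co2 as deposited (adjusted p = 0.409), and edgeR called 1 of 18164 genes (0.00551%) in that fit. With all 10 libraries DESeq2 called mt-Rnr1 and mt-Rnr2, both lower on ethanol, among 23.8% of genes.

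In WT mice edgeR called 0 of 15 members and 0% of genes between vehicles, and 9 of 15 had an unadjusted p under 0.05, all higher on ethanol, against 27.4% of genes. DESeq2 called 6 members, mt-Cytb, mt-Nd1, mt-Nd2, mt-Nd4, mt-Nd4l and mt-Nd5, all higher on ethanol, against 4.17% of genes. Mt-Nd4l was 1235, 865, 1395, 1233 and 892 CPM of other genes on ethanol and 203, 440, 1103, 488 and 538 on water, where mouse 3 alone reached the ethanol range (log2 fold change 1.14, SE 0.32, adjusted p = 0.145). These water mice are the same controls as in the MitoQ comparison. For the difference of the genotype effect between ethanol and water, edgeR called 0 of 15 members and 0% of genes, and 2 of 15 had an unadjusted p under 0.05, against 4.25% of genes.

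**Figure D4:**
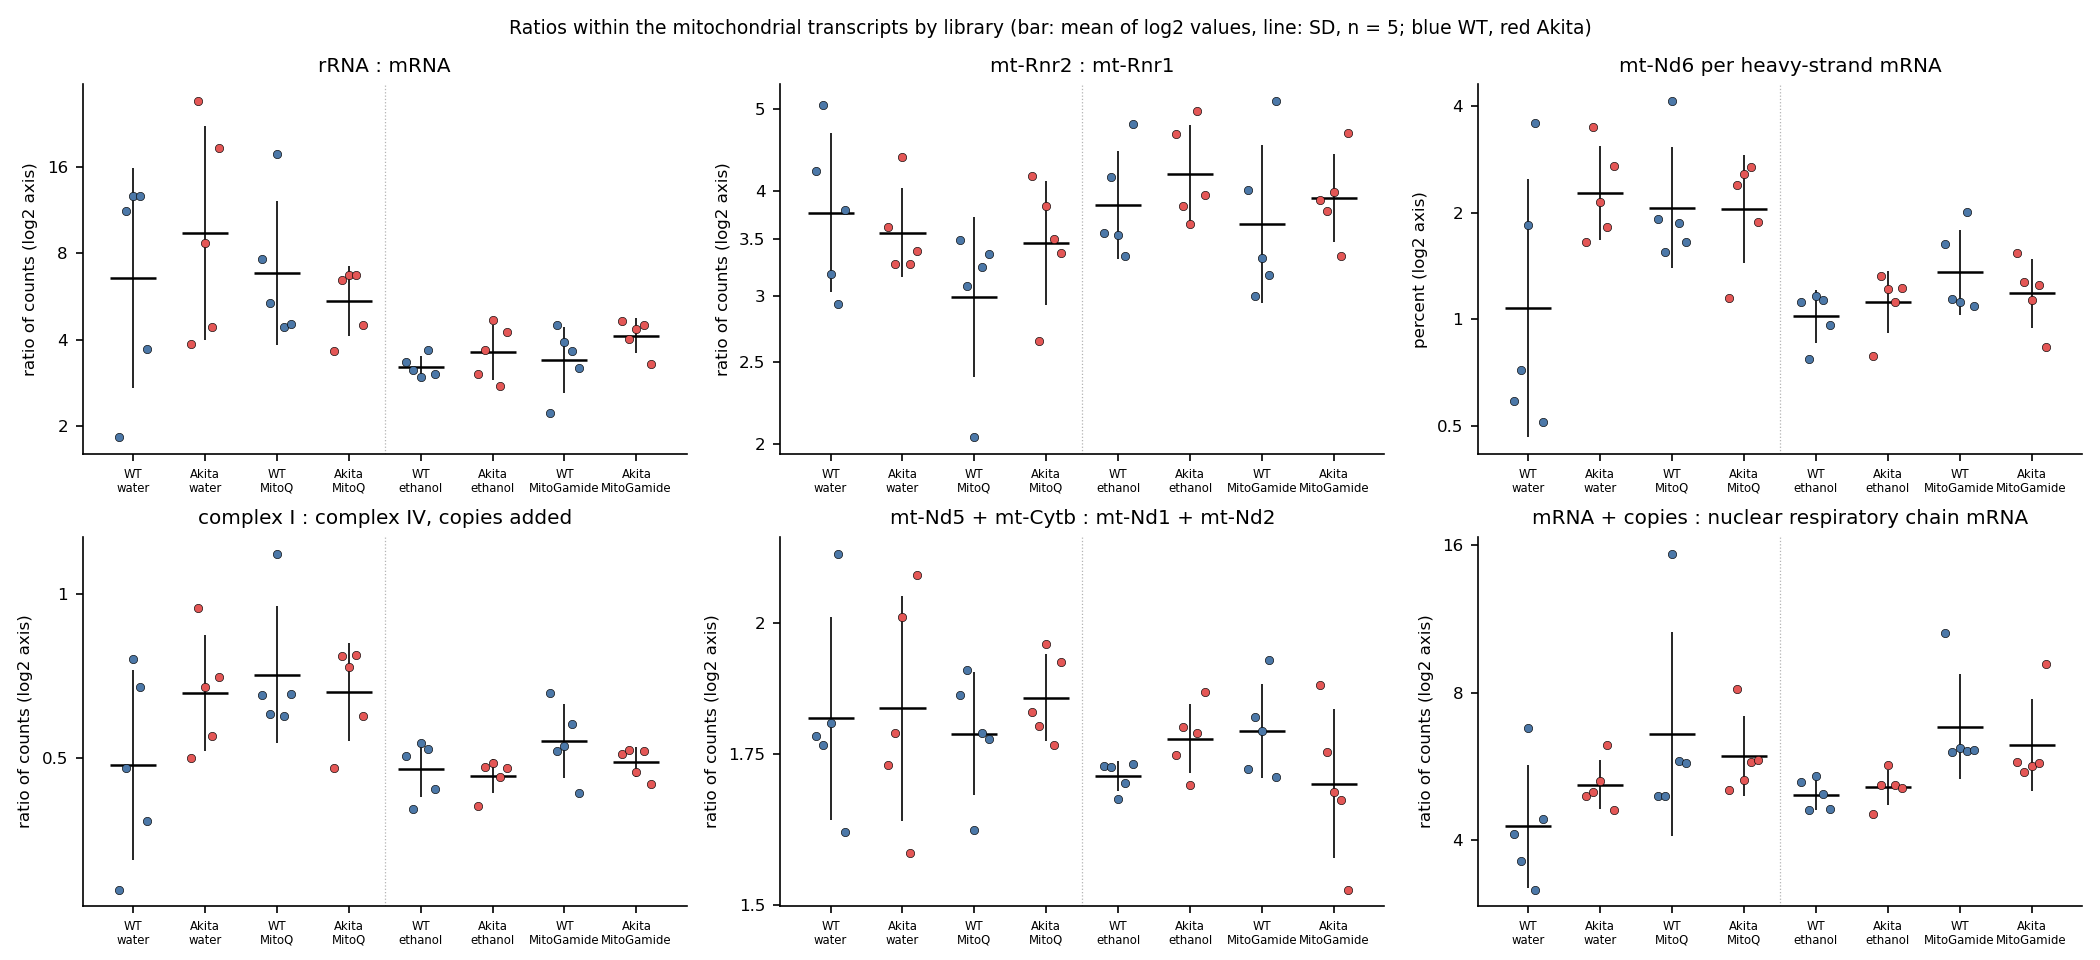
Ratios of mitochondrial transcript classes by library on log2 axes (points: libraries; bar: mean of log2 values; line: SD of log2 values, n = 5; blue WT, red Akita; the dotted line divides the water arm on the left from the ethanol arm on the right). The ratio of rRNA to mRNA as deposited reached 27.1 in the water arm and stayed at or below 4.69 in the ethanol arm.

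Classes were then compared with each other within a library. The chromosome 1 copies held 1.02% to 21.9% of the counts of mRNAs and copies together, so ratios with the mRNAs as deposited depend on how shared reads were placed. As deposited, the ratio of rRNA to mRNA counts was 3.04, 3.67, 4.69, 2.75 and 4.24 in Akita mice on ethanol and 3.87, 27.1, 8.69, 4.42 and 18.6 on water (log2 difference -1.39, exact permutation test, p = 0.0476). The values of 27.1 and 18.6 belong to the mice with high Lars2, and without these 2 libraries the difference was -0.55 (exact permutation test, p = 0.143). Leaving out 1 library gave -1.71 to -1.01, and p was above 0.05 in 7 of the 10 cases (up to 0.0952). With copies added the difference was -1.38 (p = 0.0397) with all libraries and -0.55 (p = 0.107) without those 2 (exact permutation tests). In WT mice it was 3.34, 3.14, 2.96, 3.67 and 3.03 on ethanol and 1.82, 11.2, 12.7, 12.6 and 3.71 on water, with overlap (log2 difference -1.03, exact permutation test, p = 0.127). Without WT water mouse 1, the library with the highest liver, thick ascending limb and inner medulla markers, it was -1.49 (exact permutation test, p = 0.00794).

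Mt-Nd6, the minus-strand mRNA, was compared with the 12 mRNAs of the other strand as a measure of strand balance. In Akita mice it came to 0.791%, 1.33%, 1.22%, 1.12% and 1.22% of their counts on ethanol and to 1.65%, 3.503%, 2.15%, 1.83% and 2.71% on water, without overlap (log2 difference -1.03, exact permutation test, p = 0.00794). Without mice 2 and 5 on water, which have high Lars2, it was -0.74 (exact permutation test, p = 0.0179, the smallest that 5 against 3 mice allow). WT mice on water were at 0.587%, 0.718%, 1.85%, 3.59% and 0.514%, on both sides of WT mice on ethanol (0.773% to 1.17%), and the log2 difference was -0.08 (exact permutation test, p = 0.89), or 0.36 without WT mouse 4 on water, which has high Lars2 (exact permutation test, p = 0.389). The difference between genotypes in this vehicle effect did not pass its test (-0.95, exact permutation test within genotypes, p = 0.158).

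The 6 complex I mRNAs of the heavy-strand transcript were set against the 3 complex IV mRNAs. With copies added, their ratio of counts was 0.409, 0.483, 0.490, 0.462 and 0.479 in Akita mice on ethanol and 0.501, 0.944, 0.677, 0.549 and 0.704 on water, without overlap (log2 difference -0.51, exact permutation test, p = 0.00794). As deposited the difference was -0.59 (p = 0.0159 by the exact permutation test). Without the mice with high Lars2 the differences were -0.30 with copies added (p = 0.0179) and -0.37 as deposited (p = 0.0893, both by exact permutation tests). In WT mice on water the ratio ranged from 0.287 to 0.759 and in those on ethanol from 0.404 to 0.534. Genes far from the promoter (mt-Nd5 and mt-Cytb) against genes near it (mt-Nd1 and mt-Nd2) gave a ratio of 1.52 to 2.15 over all libraries, the narrowest of the 8 measures, and 0 of its 10 comparisons had a p under 0.05 (exact permutation tests).

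The mitochondrial mRNAs were also set against the summed counts of the nuclear respiratory chain genes, their partners in the same complexes. With copies added, the ratio was 5.77, 5.51, 5.68, 5.76 and 9.16 in Akita mice with MitoGamide and 4.52, 5.20, 5.70, 5.19 and 5.12 with ethanol (log2 difference 0.28, exact permutation test, p = 0.0238). WT mice had 10.6, 6.04, 6.18, 6.09 and 6.10 with MitoGamide and 5.25, 4.60, 5.40, 4.97 and 4.63 with ethanol, without overlap (log2 difference 0.46, exact permutation test, p = 0.00794). Without Akita mouse 5 with MitoGamide the Akita difference was 0.15, and its p was above 0.05 without ethanol mouse 1, 2, 4 or 5 (up to 0.0952 with 1 library left out). Without WT mouse 1 with MitoGamide the WT difference was 0.30 (exact permutation test, p = 0.00794). As deposited the log2 differences were 0.25 (p = 0.0476) and 0.37 (p = 0.00794, both by exact permutation tests). The former was 0.098 without Akita mouse 5, with p above 0.05 in 6 of 10 cases with 1 library left out (up to 0.175), and the latter was 0.23 without WT mouse 1. Between vehicles the log2 difference of this ratio with copies added was -0.02 in Akita mice (p = 0.87) and 0.21 in WT mice (p = 0.29, both by exact permutation tests), and in Akita mice it was -0.09 without the libraries with high Lars2 (p = 0.411). Leaving out 1 library gave 0.11 (without water mouse 4) to 0.38 in WT mice, with a p of 0.00794 without water mouse 3 by the exact permutation test. The ratio was 13.01 as deposited in WT mouse 3 on MitoQ, a library with high Lars2. Its nuclear respiratory chain counts were the lowest of all 40 libraries (3976 CPM outside, median 14632), as were its proximal tubule markers (8115, median 16737) and its number of genes with 10 or more counts (14893, median 17484).

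Nuclear genes that serve the mitochondrial genome were described from fixed lists. For genotype averaged over arms, edgeR called 10.9% of genes higher and 11.9% lower in Akita mice. Of 43 tested genes for transcription, replication, processing and decay of mitochondrial RNA, 1 was called higher and 4 lower, with a median log2 fold change of -0.02, which is also that of all genes. Mterf2, a member of the mitochondrial termination factor family, was higher (log2 fold change 0.42, SE 0.07, adjusted p = 3.3e-05). Mgme1, a mitochondrial exonuclease, was lower (-0.25, SE 0.07, adjusted p = 0.0066), as was Mto1, which takes part in modifying mitochondrial tRNAs (-0.22, SE 0.06, adjusted p = 0.008). By group mean, Mterf2 was higher in Akita mice in all 4 arms, while Mgme1 and Mto1 were lower in 3 arms and not under MitoQ. Mgme1 stood at 12.3 ± 0.532 CPM outside in Akita and 11.3 ± 2.95 in WT mice on MitoQ, and Mto1 at 21.97 ± 2.47 and 21.65 ± 4.69 (SD, n = 5). WT mouse 3 on MitoQ, which has high Lars2, was the lowest of its group for both, at 6.22 and 13.7. The medians under MitoQ were 12.5 in Akita and 12.1 in WT mice for Mgme1, and 21.4 and 23.0 for Mto1. Group means without this mouse are not given here.

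Among 78 mitochondrial ribosomal protein genes 1 was called higher and 2 lower in Akita mice, with a median of 0.00. These were Mrps10 (log2 fold change 0.15, SE 0.05, adjusted p = 0.0274), Mrps22 (-0.21, SE 0.07, adjusted p = 0.0393) and Mrpl36 (-0.22, SE 0.08, adjusted p = 0.0472). By group mean Mrps22 was lower in Akita mice in 3 arms but not under MitoQ (14.96 ± 0.827 against 14.76 ± 3.02 CPM outside, SD, n = 5). The WT mean under MitoQ includes WT mouse 3, the lowest of its group at 9.44, and the medians were 14.7 in Akita and 15.7 in WT mice. Of 80 nuclear respiratory chain genes 5 were called higher and 0 lower, and 73 had a positive estimate (median 0.11). The called genes with the smallest p were the complex I subunits Ndufa5 (0.33, SE 0.07, adjusted p = 2.6e-04) and Ndufa7 (0.33, SE 0.09, adjusted p = 0.0086) and the complex III subunit Uqcrq (0.25, SE 0.06, adjusted p = 0.0025). Without the 5 libraries with high Lars2, where edgeR called 23.7% of genes, 1 machinery gene was called higher and 1 lower, 4 ribosomal protein genes higher and 0 lower, and 9 nuclear chain genes higher and 0 lower. Mto1 (adjusted p = 0.0623), Mrps22 (0.148) and Mrpl36 (0.0661) were then not called, while the other 6 genes named here remained called.

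With MitoGamide in Akita mice, edgeR called 0.833% of genes higher and 0.422% lower. It called 0 of the 43 machinery genes, 1 of 78 ribosomal protein genes (higher) and 4 of 80 nuclear respiratory chain genes (all higher). The median log2 fold change of the nuclear chain was 0.01, beside 0.37 for the 15 mitochondrial members with copies added. Both include Akita mouse 5 with MitoGamide, which had the highest level of its group for most mitochondrial mRNAs. Neither median is given without it. Between vehicles in Akita mice, edgeR called 3.66% of genes higher on ethanol and 9.07% lower. It called 0 of 43 machinery genes, 20 of 78 ribosomal protein genes (all higher, median 0.40) and 13 of 80 nuclear chain genes (all higher, median 0.58), and 80 of 80 nuclear chain estimates were positive, beside a median of 0.33 for the mitochondrial members. These list calls were lost without the libraries with high Lars2, where 0 of 43, 0 of 78 and 0 of 80 were called by edgeR among 1 of 18164 genes (3819 at an unadjusted p under 0.05). The medians were then 0.27 for the ribosomal protein genes and 0.35 for the nuclear chain, with 77 of 78 and 79 of 80 estimates positive, and that of the mitochondrial members as deposited was 0.16, with 9 of 15 positive against 12 of 15 with all libraries.

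**Figure D5:**
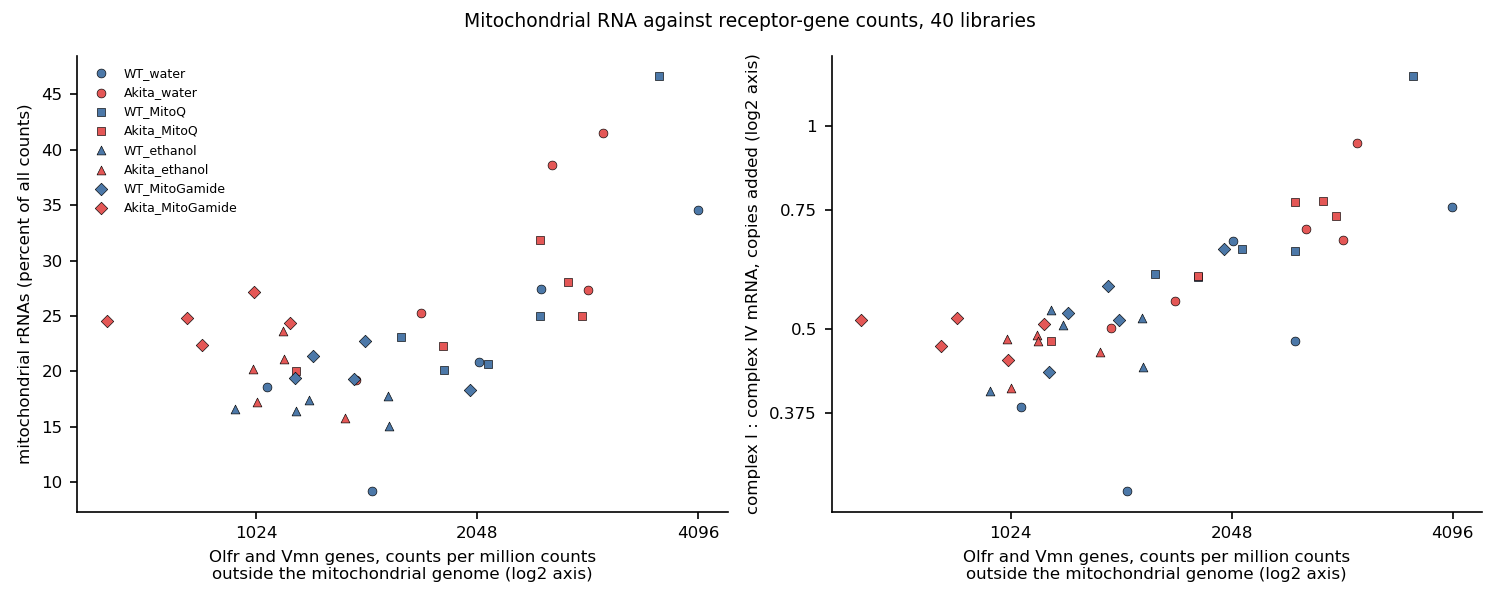
Ratio of complex I to complex IV mRNAs with copies added and rRNA share of the total count against the summed counts of olfactory and vomeronasal receptor genes, as CPM outside the mitochondrial genome (log2 axis), in 40 libraries (colour: genotype; symbol: treatment). The libraries of the water arm reach to the right of those of the ethanol arm, up to 4091.

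Library composition was set beside the ratio of complex I to complex IV mRNAs and the rRNA share. The 2001 olfactory and vomeronasal receptor genes, a family best known for sensing odours in the nose, of which some members are also expressed in the kidney, together held 1026, 1012, 1114, 1353 and 1117 CPM outside in Akita mice on ethanol and 1401, 3032, 2899, 1715 and 2587 on water, without overlap. Nuclear-retained RNAs summed to 12136 to 16088 and 15778 to 29500 CPM outside in the same groups. Each arm holds 4 groups whose means differ, so relations between libraries were taken over deviations from the group means, with libraries permuted within groups. In the water arm the log2 ratio of complex I to complex IV mRNAs followed the log2 receptor counts (n = 20, Pearson r = 0.85, Spearman rho = 0.90, permutation p = 8e-05 and 4e-05, r = 0.85 without the 2 libraries with the most extreme receptor counts). Without the libraries with high Lars2 the values were r = 0.88 and rho = 0.92 (n = 15, permutation p = 0.00202 and 0.00081, r = 0.87 without 2 more libraries). In the ethanol arm r was 0.41 and rho 0.29 (n = 20, permutation p = 0.125 and 0.269, r = 0.35 without 2 libraries). Against the same counts, the log2 rRNA share had r = 0.76 and rho = 0.82 in the water arm (n = 20, permutation p = 0.00085 and 0.00016, r = 0.84 without 2 libraries). Without the libraries with high Lars2 it had r = 0.69 and rho = 0.80 (n = 15, permutation p = 0.0489 and 0.00961, r = 0.65 without 2 more libraries). In the ethanol arm it had r = -0.18 and rho = -0.05 (n = 20, permutation p = 0.392 and 0.839, r = -0.10 without 2 libraries), while over libraries pooled without regard to group r was -0.50. Over these 6 relations the adjusted p of r was 0.00255 or less in the water arm with all libraries and 0.0733 for the rRNA share without those with high Lars2. Receptor counts with MitoGamide were 641 to 1138 CPM outside in Akita mice and 1154 to 1999 in WT mice, where the ethanol mice were at 1012 to 1353 and 959 to 1551, and the log2 differences were -0.35 and 0.16. The part of library composition in the differences between vehicles and with MitoGamide was not tested.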

How the data were processed

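Renal cortex RNA of 40 individual mice was depleted of rRNA and sequenced as single reads from strand-specific libraries. Per the study's methods, the authors trimmed reads with Skewer, assigned them with kallisto 0.46.1 to GENCODE mouse release 25 transcripts (GRCm38) and summed to genes in R 4.0.2. The deposited values are estimated counts per gene, written as whole numbers. All columns belonged to a sample, and 0 rows lacked a gene symbol.

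Genes averaging 10 or more counts over the libraries of a comparison were tested with edgeR 4.0.16 (quasi-likelihood, TMM, R 4.3.3), which replaced the DESeq2 of the study as the main test. DESeq2 1.42.0, other normalizations, filters and designs, single libraries left out and copies added were alternatives. The fits for genotype on ethanol and for genotype averaged over arms were tried on simulated counts with the same dispersion for all genes and libraries. The other comparisons were not simulated. The study's RNA methods do not describe an analysis of the water arm, to which the same steps were applied. Nuclear copies were found by shared stretches of 31 bases in GENCODE release 21 transcripts, which hold 99.5% of the gene IDs, and sequences were read from there. Log2 fold changes are first-named minus second-named group. Statistics are given for the mRNA with the smallest p where none was called, for called members, and for the up to 3 called genes of each list with the smallest p. A few further members are named because another tool called them, and their values were seen first. Members and lists were chosen with earlier results of these data known. Libraries held 9106654 to 24321424 counts. P-values of group differences set the difference against the spread between mice, and those of correlations concern a relation between libraries. The library of each mouse is 1 replicate.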

Additional observations from a re-analysis of the deposited data

Results flagged for a closer look

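In 11 of the 80 groups of 5 examined over 10 measures, 1 library lay far from the other 4 by Dixon's test, where chance gives about 1 in 20. WT mouse 3 on MitoQ, which had high Lars2, accounted for 5 of them. Its rRNA share of the total count was 46.6% (the others 20.1% to 25.02%), its ratio of mt-Rnr2 to mt-Rnr1 was 2.04 (3.08 to 3.49), mt-Nd6 per heavy-strand mRNA was 4.14% (1.55% to 1.92%), complex I to complex IV mRNA as deposited was 1.96 (0.699 to 0.886), and mitochondrial mRNA to nuclear respiratory chain mRNA as deposited was 13.01 (4.50 to 5.10). Its nuclear respiratory chain counts, the denominator of the last ratio, were 3976 CPM outside the mitochondrial genome, the lowest of all 40 libraries.

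Akita mouse 5 with MitoGamide was highest in the mRNA share of the total at 8.25% (the others 5.24% to 5.69%), in mRNA to nuclear respiratory chain mRNA as deposited at 8.06 (4.57 to 4.87), and in mRNA with copies relative to other genes outside the mitochondrial genome at 14.8% (9.40% to 9.69%). WT mouse 1 with MitoGamide was highest in the last 2 of these, at 8.49 (4.75 to 5.54) and 14.4% (8.20% to 9.19%). Akita mouse 2 on MitoQ, with high Lars2, had a ratio of mRNA to nuclear respiratory chain mRNA of 7.02 (4.55 to 5.08).

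The ratio of promoter-distal to promoter-near mRNAs moved by -0.07 on the log2 scale with MitoGamide in Akita mice and by 0.07 in WT mice. The difference of -0.13 had an exact permutation p of 0.0407, and its adjusted p over 24 such tests was 0.76.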

How the results depend on the processing

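Of 1580 values recomputed under alternatives for 107 results, 1468 kept their side of the threshold or, for counts, moved by at most 1.5 times, and in 81 of these an estimate called under neither setting changed sign. Of the rest, 22 counts moved further, 39 tests were no longer under their threshold, 51 came under it and 0 called values changed sign.

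The count of members called, 0 of 15 by edgeR in every comparison, became under DESeq2 1 for genotype on ethanol, on water, under MitoGamide and averaged over arms, 4 and 2 for MitoGamide in Akita and WT mice, and 2 and 6 for ethanol against water in Akita and WT mice. With all 40 libraries in 1 fit it was 2 for genotype on water (against 3.08% of all genes), 2 for MitoQ in WT mice (0.101%) and 6 for ethanol against water in WT mice (8.82%). For MitoGamide in Akita mice it was 1 without a filter (0.492% of all genes) and 1 with copies added (1.3%), and for genotype averaged over arms it was 2 without the 5 libraries with high Lars2 (23.7%), an alternative chosen after seeing the data. Leaving out 1 library gave 0 to 2 calls for MitoGamide in Akita mice (2 without treated mouse 5, against 4.67% of all genes), 0 to 5 for ethanol against water in Akita mice (1 and 5 without water mice 1 and 4, against 36.2% and 34.5%), 0 to 8 in WT mice (8 without water mouse 5, against 28.6%), and 0 to 3 for genotype averaged over arms (1, 2, 3 and 1 without Akita water 2, WT MitoGamide 1, WT MitoQ 3 and WT water 3, against 21.7% to 24.6%).

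The log2 difference of the mRNA share came under p = 0.05 by the exact permutation test with other denominators. Over counts outside the mitochondrial genome it was 0.12 for genotype on ethanol, 0.26 and 0.29 for MitoGamide in Akita and WT mice, and 0.66 for ethanol against water in WT mice (0.42 without WT water mouse 4, which has high Lars2). As CPM with TMM factors the last 3 were 0.29, 0.30 and 0.74. With copies added MitoGamide in WT mice gave 0.29 and ethanol against water in WT mice 0.79. With both the copies and the outside denominator, chosen after seeing the data, the 4 values were 0.18, 0.30, 0.39 and 0.72. Leaving out 1 library moved this difference between 0.030 and 0.19 for MitoGamide in Akita mice (0.030 without treated mouse 5), between 0.083 and 0.26 in WT mice (under 0.05 without treated mouse 2), between 0.54 and 1.02 for ethanol against water in Akita mice (without water mouse 1 or 4), and between 0.52 and 0.92 in WT mice (without water mouse 1 or 5).

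The rRNA share of Akita against WT mice on ethanol was 0.25 and under 0.05 for mt-Rnr2 alone. For mt-Rnr1 alone the difference was above 0.05 for genotype under MitoGamide (0.21), MitoGamide in WT mice (0.34), ethanol against water in Akita mice (-0.77, and -0.42 without the libraries with high Lars2) and genotype over the 4 arms (0.18). Ethanol against water in Akita mice was also above it with TMM factors (-0.72) and without the libraries with high Lars2 (-0.29). Without 1 library, the difference ranged from 0.15 to 0.30 for genotype on ethanol (under 0.05 without Akita mouse 4), from -0.74 to -0.46 for ethanol against water in Akita mice (above 0.05 without ethanol mouse 1, 2, 4 or 5 or water mouse 2, 3 or 5), from -0.57 to -0.091 in WT mice (under 0.05 without water mouse 1) and from 0.18 to 0.31 for genotype over the 4 arms. That last one was above 0.05 without Akita ethanol 3, Akita water 2 or 5, Akita MitoQ 2 or 4, WT water 1, 4 or 5, or WT MitoQ 2, 4 or 5. The causes were not tested.

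With the replicate number as a block, 0 of 15 members were called in every pairwise comparison and for genotype averaged over arms. The block called 0% of all genes for MitoGamide in both genotypes, for MitoQ in Akita mice and for ethanol against water in Akita mice, so no call was made there on any gene. Elsewhere it called 0.00559% for MitoQ and 0.0111% for the vehicles in WT mice, 14.5%, 0.175%, 13.7% and 0.265% for genotype on ethanol, on water, under MitoGamide and under MitoQ, and 22.9% for genotype averaged. The labels number the mice but do not say that equal numbers are paired, and the deviations of same-numbered mice correlated above 0.1 in at most 3 of 5 pairs of a comparison, with at most 2 of 5 mice correlating best with their own number.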
